A study of Homo sapiens with 8 samples.

Results

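NRF2 (gene NFE2L2) is the transcription factor that switches on the cell's antioxidant and detoxification genes, and 34 genes around it were followed here: NFE2L2 itself, its inhibitor KEAP1, its partner MAFG and 31 genes that it is known to control or that serve the same defence. They were chosen by name, as a list of symbols, with earlier results of these data known. Each was read by the brightest probe set that carries a single gene symbol in the array's annotation. Of the 34 listed genes, 31 were measured, among 18404 genes in all. PIR and TRIM16L had only probe sets shared with another gene, and FTH1 was not listed in the annotation used here.

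The arrays held total RNA of the established human lung adenocarcinoma lines NCI-H1299 (here H1299) and NCI-H2009 (here H2009). Each line was infected for 2 days with lentivirus carrying a short hairpin RNA, kept in puromycin for 2 further days and lysed at day 4. Both control groups were thus infected and selected cells too: they carried a hairpin against GFP or against luciferase (LUC). The knockdown groups carried either of 2 hairpins against PTK7, a catalytically inactive receptor kinase that acts in planar cell polarity and Wnt signalling, here PTK7-1 and PTK7-2. There were 8 arrays, 1 for each hairpin in each line, so each of the 4 groups held 2 arrays with different hairpins, and an uninfected culture was not analysed here. The labels do not speak of repeated cultures, so the p-values reflect only how these arrays scatter. In the group comparisons that scatter mixes differences between the 2 hairpins of a group with scatter that may be technical.

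In unstressed cells KEAP1 binds NRF2 and hands it to a ubiquitin ligase built on CUL3, which sends it to degradation. Oxidants and electrophiles modify cysteines of KEAP1, NRF2 then accumulates without any need for more of its mRNA, pairs with a small MAF protein and binds antioxidant response elements near its targets. BACH1, a heme-sensing repressor, competes for the same elements, and HMOX1 is a well-known gene under its control. In lung adenocarcinoma the pathway is often switched on by mutation of KEAP1 or NFE2L2. The targets make glutathione, reduce thioredoxin, supply NADPH, convert quinones, carbonyls and epoxides, export conjugates, and break down heme and store its iron.

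Letters that match the core of the response element stood in the promoters of several of these genes. This core was searched as TGACNNNGC, a motif of 9 letters. Both strands of the 250 bases before each RefSeq start site (build GRCh38.p14) were read. The core stood in 3830 of 35116 windows of this length, or 10.9%, and in 9 of the 31 windows of the listed genes, or 29.0%. These 31 windows belonged to 25 genes, of which 8 held a core: CBR1, EPHX1, GCLM, GPX2, KEAP1, ME1, PGD and TXNRD1. No window was matched for ABCC1, ABCC3, AKR1B10, CBR3, FTH1, GSR, HMOX1, PRDX1 and TRIM16L. An AP-1 site, TGANTCA, which is 7 letters long and can overlap the core, was found in 6.57% of all windows and in 2 of the 31, those of ME1 and OSGIN1. A match describes the letters and is not a measured binding site. The windows below are shown because their genes carry results that follow. GCLM stood higher after knockdown, and TXNRD1 is the gene of the list with a core in both of its windows. EPHX1 stood lower after knockdown than under control hairpins in H2009, and ME1 differed most between the PTK7 hairpins. Capitals mark the core, which in GCLM lies on the opposite strand, where it reads TGACTAAGC.
GCLM, chr1:93909431-93909680, minus strand: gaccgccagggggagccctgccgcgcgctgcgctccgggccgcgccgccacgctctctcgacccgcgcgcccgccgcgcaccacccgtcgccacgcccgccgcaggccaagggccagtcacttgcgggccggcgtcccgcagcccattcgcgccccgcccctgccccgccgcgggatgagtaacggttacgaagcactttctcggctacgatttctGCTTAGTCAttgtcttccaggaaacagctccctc
TXNRD1, chr12:104215529-104215778, plus strand: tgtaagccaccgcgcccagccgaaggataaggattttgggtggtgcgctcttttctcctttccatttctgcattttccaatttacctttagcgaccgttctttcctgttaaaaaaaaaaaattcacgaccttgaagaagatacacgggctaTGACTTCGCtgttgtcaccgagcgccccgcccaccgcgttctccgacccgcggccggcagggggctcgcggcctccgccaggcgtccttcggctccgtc
EPHX1, chr1:225825104-225825353, plus strand: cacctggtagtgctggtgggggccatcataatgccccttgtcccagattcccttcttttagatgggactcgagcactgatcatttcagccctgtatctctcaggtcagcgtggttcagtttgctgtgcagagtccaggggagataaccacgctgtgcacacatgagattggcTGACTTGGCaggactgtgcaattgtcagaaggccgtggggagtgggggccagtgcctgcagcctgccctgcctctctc
ME1, chr6:83431052-83431301, minus strand: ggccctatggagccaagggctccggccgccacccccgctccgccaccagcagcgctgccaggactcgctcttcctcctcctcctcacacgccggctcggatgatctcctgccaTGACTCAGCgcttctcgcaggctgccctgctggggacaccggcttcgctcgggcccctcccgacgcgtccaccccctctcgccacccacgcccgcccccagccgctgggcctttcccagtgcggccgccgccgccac
The core begins at position -34 in GCLM, -99 in TXNRD1, -78 in EPHX1 and -137 in ME1, counted back from the base before the start site, which is -1. In ME1 the core TGACTCAGC contains the AP-1 site. The EPHX1 window is the one with a core among 3 start sites.

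All values are RMA log2 values, so a difference of 1 is a doubling, and array medians lay between 5.31 and 5.41. Pearson r across genes within a group was 0.981 to 0.997. PTK7 itself was lower in both PTK7 arrays of each line than in both control arrays, by a log2 difference of -0.30 ± 0.17 (SE of the fit) in H1299 and -0.96 ± 0.17 in H2009, neither past the threshold (limma adjusted p = 0.804 and 0.222). The threshold throughout is a Benjamini-Hochberg adjusted p of 0.05 over all 18404 genes. The epithelial keratin KRT18 was bright on all arrays (10.56 to 11.61). EPCAM and CDH1 were bright in H2009 (11.17 to 11.43) and dim in H1299 (3.32 to 4.19), so the labelled epithelial origin showed in H1299 in KRT18 and KRT8 (8.68 to 10.38) alone among the 6 epithelial markers. Of the 5 measured lung lineage markers, the surfactant genes SFTPB and SFTPC were dim in both lines (3.94 to 4.43). The brightest of the 5 read 6.89 to 8.36 on the H2009 arrays and 4.96 to 5.64 on those of H1299. Under control hairpins 2 of the 5 were called lower in H1299. Among 5 measured leukocyte markers PTPRC, CD3E, CD14 and LYZ lay between 2.78 and 4.70, while CD68, a lysosomal protein, stood at 7.76 to 10.48. The 6 fibroblast markers summed to 24.5 to 26.2 per array and the 6 endothelial ones to 23.5 to 25.2.

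After PTK7 knockdown the highest differences in the list were those of HMOX1, which opens the heme ring, and GCLM, the modifier subunit of the enzyme that makes the glutathione precursor. Averaged over the lines, HMOX1 stood 2.64-fold higher and GCLM 1.59-fold higher under PTK7 hairpins, with both PTK7 arrays above both control arrays in each line. Neither passed the threshold when each group had its own mean. In the fit that treats the hairpin as a block, because both lines received the same 4 hairpins, both did (limma adjusted p = 0.0412 for HMOX1 and 0.0465 for GCLM). Each hairpin is always control or always PTK7, so this fit takes differences between hairpins of a group out of the error. Its p-values refer to these 4 hairpins only and not to PTK7 hairpins in general. In H1299 25 of the 31 genes, or 80.6%, stood above 0, beside 49.4% of all genes. In H2009 17 did, or 54.8%, near the 56.1% of all genes. In these bulk samples, fewer cells of a type and less RNA per cell cannot be told apart.

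The averaged comparison called 0 of 18404 genes (0% called, limma), and 1819 genes had an unadjusted p under 0.05. With the hairpin as a block 149 genes, or 0.810%, were called, and HMOX1 and GCLM were the members among them. Of the 31 members, 21 stood above 0 with a median log2 difference of 0.11, beside 55.8% of all genes above 0 and a median of 0.02. An unadjusted p under 0.05 was found for 8 members: HMOX1, GCLM, OSGIN1, AKR1C3, TXNRD1, SLC48A1, CBR3 and EPHX1. Of these, 7 were above 0 and EPHX1 below. The sign of the averaged difference changed under some alternative for 6 members with values near 0: GCLC, SRXN1, TKT, ME1, NQO1 and AKR1C1. With an array left out, the averaged difference moved by over 1.5 times or changed sign for 23 of the 31, TXNRD1 among them (0.20 without the H1299 LUC array). It did neither for GCLM, HMOX1, OSGIN1, AKR1C3, SLC48A1, CBR3, EPHX1 and ABCC1.

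**Figure D1:**
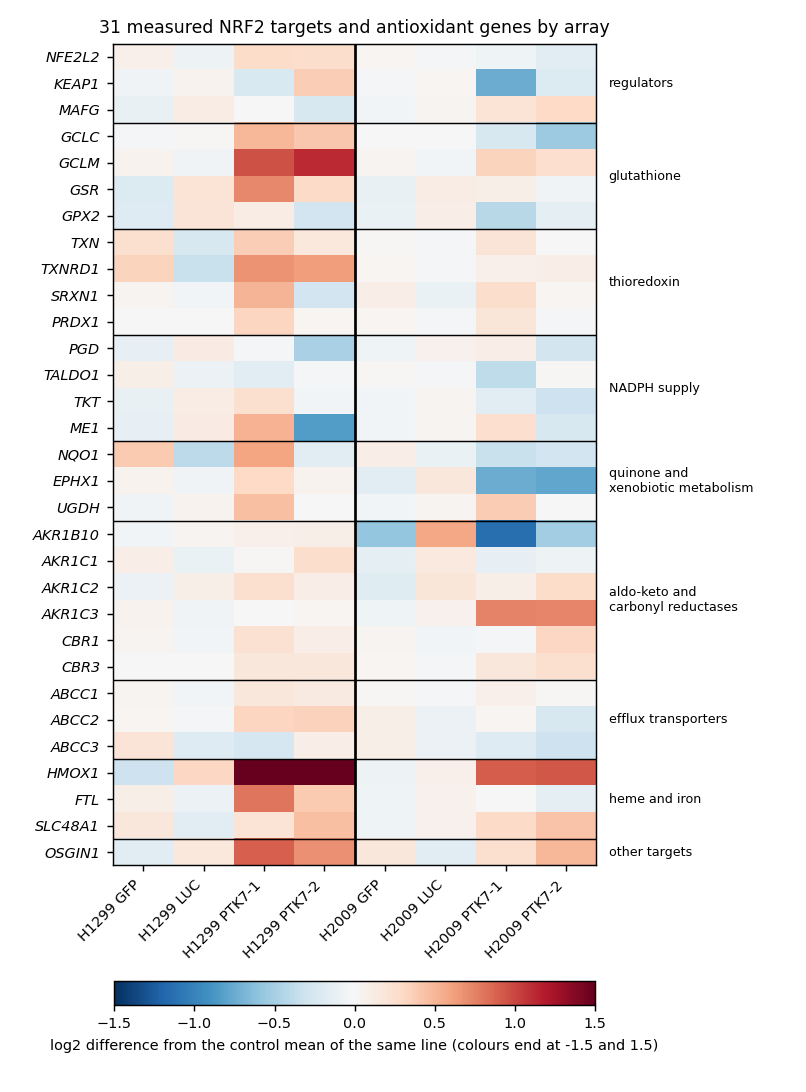
Each row is 1 of the 31 measured genes, grouped by role, each column 1 array, and the colour the log2 difference from the mean of the 2 control arrays of the same line. HMOX1 and GCLM are red in the PTK7 columns of both lines, and EPHX1 is blue in those of H2009.

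Counted by arrays, 16 of 31 members had both PTK7 arrays above both control arrays in H1299, where this held for 15.6% of all genes. None had both below, against 16.1% of all genes. In H2009 9 members were separated upward, where 26.0% of all genes were, and 8 downward, where 18.9% were, so the upward share of members in H2009 was near that of all genes. In both lines at once 7 members were separated upward (4.93% of all genes): GCLM, TXNRD1, CBR3, ABCC1, HMOX1, SLC48A1 and OSGIN1. Some of these gaps were narrow. In H2009 the lower PTK7 array read 9.346 for ABCC1 and 10.648 for TXNRD1, and the higher control array 9.337 and 10.603. For SLC48A1 in H1299 these were 9.149 and 9.107. Downward in both there were 0 members, beside 4.53% of all genes. NFE2L2 and GCLC were separated upward in H1299 and downward in H2009. In H1299 the members' median difference from the control mean was 0.27 with PTK7-1 and 0.10 with PTK7-2, and in H2009 it was 0.08 and -0.01.

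The comparison within H1299 called 1 gene of all (0.00543%) and no member, and that within H2009 called 0 (0%). Unadjusted p-values under 0.05 numbered 1376 genes with 8 members in H1299, and 1468 genes with 5 members in H2009. Blocking on the hairpin gave 4 called genes (0.0217%) in H1299 and 0 (0%) in H2009, none of them a member. The difference of the knockdown effect between the lines called 0 genes (0%), with 951 genes and 6 members at an unadjusted p under 0.05.

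Among the regulators, NFE2L2 was bright throughout. Its log2 value in H1299 was 9.88 on the GFP array, 9.72 on LUC, 10.07 on PTK7-1 and 10.06 on PTK7-2. In H2009 the values were 10.27, 10.20, 10.17 and 10.07, in the order kept throughout. The PTK7 arrays were thus above the controls in H1299 and below them in H2009, by 0.27 ± 0.12 and -0.12 ± 0.12, and neither passed. KEAP1, the inhibitor, read 8.20, 8.31, 8.02 and 8.62 in H1299 and 8.15, 8.21, 7.43 and 7.98 in H2009. Its lowest array was PTK7-1 in H2009, and in H1299 the PTK7 arrays lay on both sides of the controls. MAFG, a small MAF partner, ranged from 8.29 to 8.67 over all arrays, with an averaged difference of 0.07 ± 0.10.

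In glutathione metabolism GCLM read 7.23 (GFP), 7.14 (LUC), 8.14 (PTK7-1) and 8.31 (PTK7-2) in H1299. Its H2009 values were 9.01, 8.93, 9.30 and 9.22. Both hairpins stood above both controls in each line, and the difference was 1.04 ± 0.12 in H1299 and 0.29 ± 0.12 in H2009 (adjusted p = 0.144 and 0.620). The averaged difference was 0.67 ± 0.09 (adjusted p = 0.112, with a range of 0.0465 to 0.212 over other settings and 0.0805 to 0.792 with an array left out). GCLC, the catalytic subunit of the same ligase, read 8.57, 8.60, 9.08 and 8.99 in H1299 and 9.52, 9.54, 9.29 and 8.99 in H2009. It stood 0.45 ± 0.14 above the controls in H1299 and -0.39 ± 0.14 from them in H2009, or -0.24 without the PTK7-2 array. The difference of 0.85 ± 0.19 between these did not pass (adjusted p = 0.848). GSR, which reduces oxidised glutathione, was 9.88, 10.29, 10.80 and 10.37 in H1299, a difference of 0.50 ± 0.20, and 10.57, 10.78, 10.77 and 10.62 in H2009, a difference of 0.02 ± 0.20. The H1299 difference became 0.29 without the PTK7-1 array and 0.30 without the GFP array. GPX2, a gut-type glutathione peroxidase, was below the array medians on all arrays (3.55 to 4.40).

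**Figure D2:**
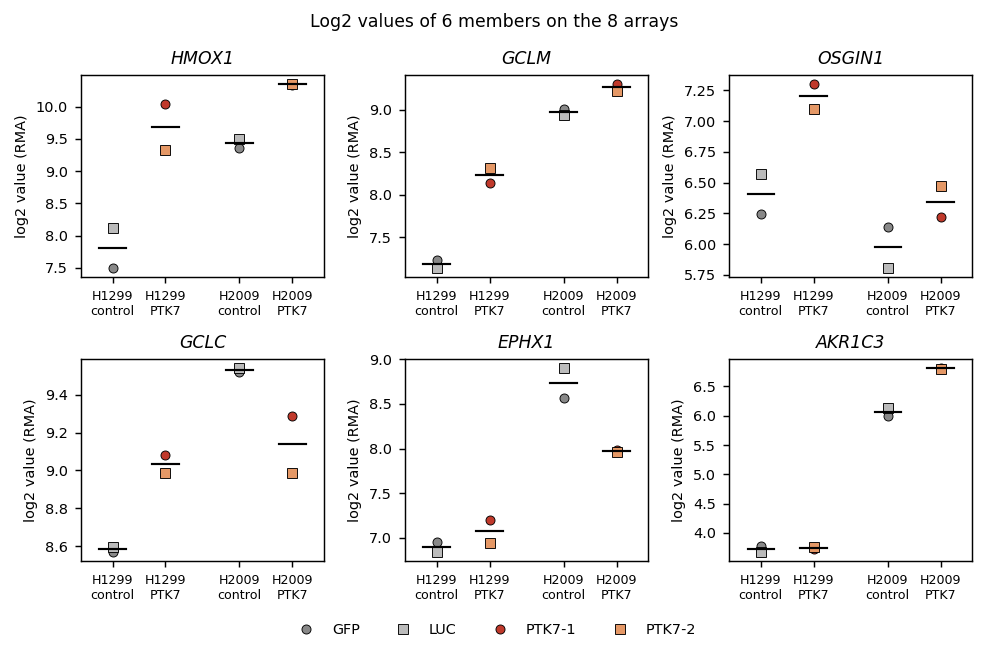
Points are the log2 values of 6 genes on the 8 arrays, by group, with a bar at each group mean and the hairpin shown by marker and colour; each panel has its own axis. HMOX1, GCLM and OSGIN1 lie above the controls in both lines, GCLC lies above the controls in H1299 and below them in H2009, and in H2009 EPHX1 lies below and AKR1C3 above.

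The 4 thioredoxin genes had averaged differences between 0.13 and 0.37, though that of SRXN1 changed sign under an alternative, and 0 of 4 passed. TXNRD1, the reductase that recharges thioredoxin, read 9.73, 9.06, 10.07 and 10.03 in H1299 and 10.60, 10.54, 10.65 and 10.68 in H2009. Its control arrays in H1299 were far apart, and the H1299 difference of 0.65 ± 0.21 became 0.32 without the LUC array and 0.99 without the GFP array. TXN, the thioredoxin itself, stood at 0.18 ± 0.13 averaged over the lines. SRXN1, which repairs overoxidised peroxiredoxins, was highest with PTK7-1 in each line (9.39 in H1299 and 8.77 in H2009) and read 8.60 and 8.55 with PTK7-2. PRDX1, an abundant peroxiredoxin, was among the brightest genes of the list, with 11.25 to 11.63 over all arrays.

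The genes that supply NADPH, the fuel of both systems, gave 4 of 4 averaged differences below 0, though those of TKT and ME1 changed sign under an alternative, and none passed. PGD and TALDO1 of the pentose phosphate pathway stood at -0.17 ± 0.15 and -0.14 ± 0.11, and TKT at -0.07 ± 0.11. ME1, malic enzyme, read 7.61, 7.84, 8.24 and 6.88 in H1299 and 10.15, 10.23, 10.44 and 9.95 in H2009. In each line the PTK7-1 array was the highest and the PTK7-2 array the lowest, so the averaged difference was -0.08 ± 0.29.

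Of the genes that handle quinones and xenobiotics, NQO1, a quinone reductase used widely as a readout of NRF2, read 10.60, 9.81, 10.80 and 10.05 in H1299 and 11.62, 11.43, 11.19 and 11.24 in H2009. Its control arrays in H1299 differed by more than the groups did, and the differences were 0.22 ± 0.31 and -0.31 ± 0.31. EPHX1, microsomal epoxide hydrolase, read 6.95, 6.84, 7.20 and 6.95 in H1299, where groups overlapped. In H2009 it read 8.56, 8.91, 7.99 and 7.96. There both PTK7 arrays lay below both controls, by -0.76 ± 0.16 (adjusted p = 0.299), while the H1299 difference was 0.18 ± 0.16. The difference between the lines, 0.94 ± 0.22, did not pass (adjusted p = 0.848). UGDH, which makes the glucuronic acid donor, was highest with PTK7-1 in each line, at 10.64 and 11.41.

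AKR1C3, an aldo-keto reductase of steroids and prostaglandins, differed in H2009 and was dim in H1299. In H2009 the control arrays averaged 6.07 ± 0.09 (SD, n = 2), with LUC the higher at 6.14, and the PTK7-1 and PTK7-2 arrays read 6.82 and 6.80, a difference of 0.74 ± 0.12 (limma adjusted p = 0.197). Both PTK7 arrays thus lay above both controls. In H1299 it lay below the array medians at 3.67 to 3.78, where a change would be compressed. Its near-identical relatives AKR1C1 and AKR1C2 stood at 0.02 ± 0.11 and 0.18 ± 0.11 averaged over the lines, and cross-reading between the 3 probe sets was not tested. AKR1B10 lay at 3.27 to 3.40 in H1299. In H2009 it read 4.20, 5.37, 3.66 and 4.26, with overlapping groups. The carbonyl reductases CBR1 and CBR3 had averaged differences of 0.15 ± 0.10 and 0.19 ± 0.08, and CBR3 was separated upward in both lines over a range of only 5.74 to 6.03.

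None of the efflux pumps passed in a knockdown comparison. ABCC1, which exports glutathione conjugates, stood at 0.15 ± 0.11 in H1299 and 0.05 ± 0.11 in H2009. ABCC2 read 5.65, 5.59, 5.94 and 5.96 in H1299, with both PTK7 arrays above the controls by 0.33 ± 0.14, and its H2009 difference was -0.10 ± 0.14. ABCC3 stood at -0.17 ± 0.13 averaged over the lines.

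In heme and iron metabolism HMOX1 (chr22:35381096-35394207, GRCh38.p14) read 7.50 (GFP), 8.12 (LUC), 10.05 (PTK7-1) and 9.33 (PTK7-2) in H1299. Its H2009 values were 9.35, 9.50, 10.34 and 10.36. Both PTK7 arrays were above both controls in each line, and the PTK7 arrays of H1299 lay around the control level of H2009. The difference was 1.88 ± 0.28 in H1299, or 3.68-fold, and 0.92 ± 0.28 in H2009, or 1.89-fold (adjusted p = 0.294 and 0.479). The averaged difference of 1.40 ± 0.19 had an adjusted p of 0.118 (0.0412 to 0.153 over other settings, and 0.0805 to 0.792 with an array left out). FTL, the ferritin light chain that helps store the iron released from heme, read 10.94, 10.76, 11.65 and 11.24 in H1299, a difference of 0.59 ± 0.17, and 11.15, 11.28, 11.23 and 11.09 in H2009, a difference of -0.06 ± 0.17. Without the PTK7-1 array the H1299 difference was 0.39. SLC48A1, a heme transporter, read 9.11, 8.78, 9.15 and 9.40 in H1299 and 8.37, 8.50, 8.73 and 8.87 in H2009. It was separated upward in each line, by 0.33 ± 0.16 and 0.36 ± 0.16.

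OSGIN1, an oxidative stress-induced growth inhibitor, read 6.25, 6.57, 7.30 and 7.10 in H1299 and 6.14, 5.81, 6.22 and 6.47 in H2009. The PTK7 arrays were again the higher ones in each line, by 0.79 ± 0.18 and 0.37 ± 0.18, with an averaged difference of 0.58 ± 0.13 (adjusted p = 0.226, or 0.116 in the blocked fit).

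**Figure D3:**
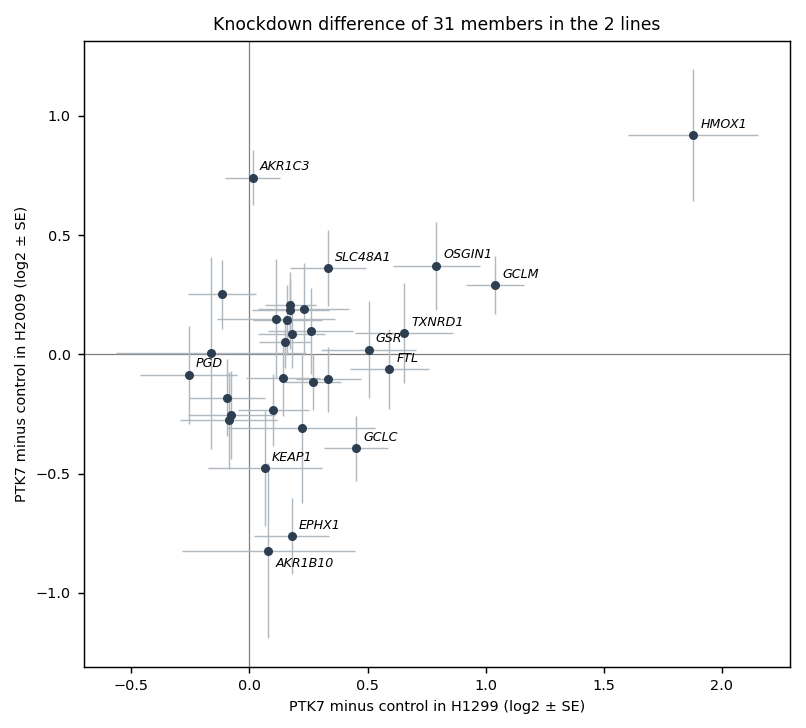
Each point is 1 of the 31 genes, with its PTK7 minus control log2 difference in H1299 on the x axis and in H2009 on the y axis, and bars of 1 SE of the fit. HMOX1 lies at 1.88 and 0.92, GCLM and OSGIN1 are above 0 on both axes, and EPHX1, AKR1B10 and GCLC lie above 0 in H1299 and below 0 in H2009.

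Each PTK7 hairpin was also set against the control hairpins, in a fit of hairpin plus line; both of these comparisons share the 4 control arrays. HMOX1 rose under PTK7-1, by 1.57 ± 0.27 (adjusted p = 0.0457), 1 member among 226 called genes (1.23%). This call was lost with quantile normalization (0.0644) and cyclic loess (0.0702), and without any single one of the 8 arrays, when the value ran from 1.01 to 2.14 and the adjusted p from 0.0532 to 0.266. Under PTK7-2 it stood at 1.22 ± 0.27 (adjusted p = 0.0735), and 0 members were among 395 called genes (2.15%). It did pass under PTK7-2 without the dimmest 40% of genes (adjusted p = 0.0470), with a trended prior (0.0303) and without the PTK7-1 array of either line (0.0395). GCLM stood at 0.64 ± 0.20 and 0.69 ± 0.20 and OSGIN1 at 0.57 ± 0.19 and 0.59 ± 0.19 under PTK7-1 and PTK7-2. Without the H1299 array of the hairpin, GCLM stood at 0.35 under PTK7-2 and OSGIN1 at 0.28 under PTK7-1; without the H2009 PTK7-1 array OSGIN1 stood at 0.86. Above 0 were 24 members with PTK7-1, beside 53.6% of all genes, and 20 with PTK7-2, beside 57.7%.

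The PTK7 hairpins were compared with each other directly, which called 686 genes (3.73%) and 0 members. An unadjusted p under 0.05 was found for 5 members, or 16.1%, beside 3364 genes, or 18.3% of all, so the share of members was near that of all genes. The largest of these was ME1, 0.93 ± 0.21 higher with PTK7-1 than with PTK7-2 (adjusted p = 0.0542, 95% interval 0.45 to 1.41). It passed with median centring (0.0459), without the dimmest 40% of genes (0.0369), with a trended prior (0.0278) and without the H2009 PTK7-2 array (0.0199), and it fell to 0.58 without the H1299 PTK7-2 array. SRXN1, UGDH and PGD also stood higher with PTK7-1, by 0.51 ± 0.16, 0.42 ± 0.12 and 0.42 ± 0.13, and KEAP1 lower, by -0.57 ± 0.19 (adjusted p = 0.124 to 0.152). With a trended prior UGDH (0.0366) and PGD (0.0453) passed. Without the H1299 PTK7-2 array the difference of SRXN1 was 0.31 and that of KEAP1 -0.37, and without the H1299 PTK7-1 array that of SRXN1 was 0.34. For HMOX1 this difference was 0.35 ± 0.32 and for GCLM -0.04 ± 0.23, with no call. The control hairpins GFP and LUC gave 0 called genes (0%), 672 genes and 0 members with an unadjusted p under 0.05.

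**Figure D4:**
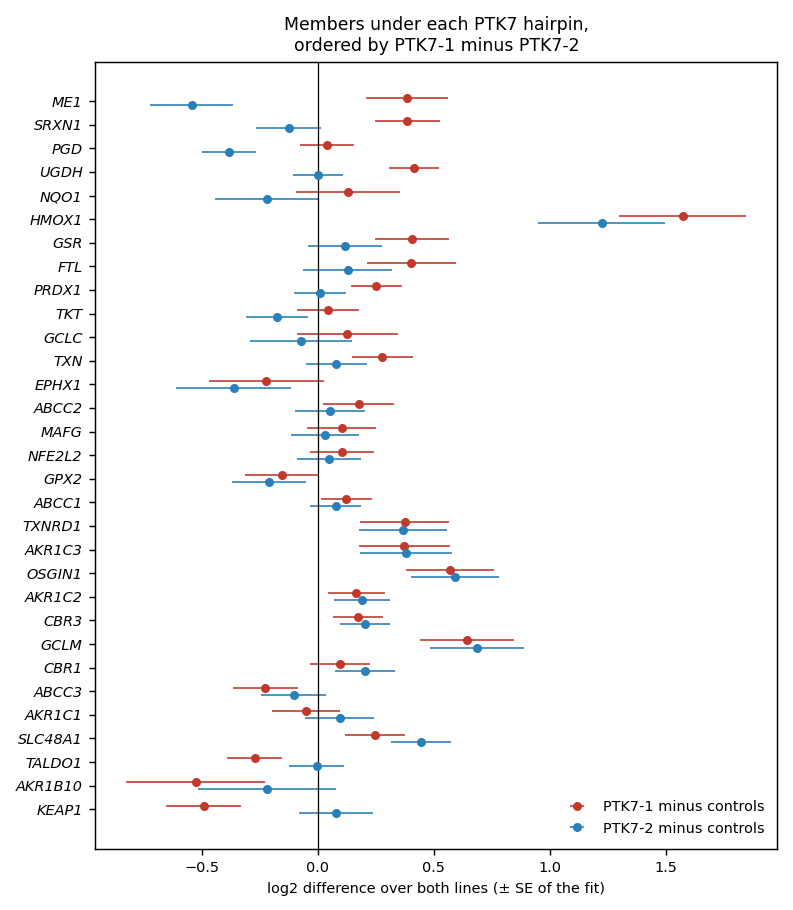
For each gene the red and blue points are the log2 difference of PTK7-1 and PTK7-2 from the same control arrays over both lines, with bars of 1 SE, ordered by the difference between the hairpins. ME1 and SRXN1 at the top lie on opposite sides of 0 under the 2 hairpins, while both points of HMOX1, GCLM and OSGIN1 lie above 0.

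Without a hairpin against PTK7 the lines also differed widely in these genes. Under control hairpins 17 of 31 members passed, 15 lower and 2 higher in H1299 than in H2009. In all, 24.8% of genes were called, 12.3% lower and 12.5% higher in H1299. Of the members 8 stood above 0, with a median of -0.47, beside 58.5% of all genes and a median of 0.06. The lower genes took in the glutathione ligase subunits GCLM (-1.79 ± 0.12, adjusted p = 9.14e-05) and GCLC (-0.95 ± 0.14), the reductase TXNRD1 (-1.18 ± 0.21) and NQO1 (-1.31 ± 0.31). They also took in ME1 (-2.46 ± 0.40), TKT (-0.61 ± 0.15) and TALDO1 (-0.65 ± 0.16) of NADPH supply, and UGDH (-0.84 ± 0.19). NFE2L2 itself was lower by -0.44 ± 0.12 (adjusted p = 0.0343).

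The widest gap was in ABCC3, an organic anion pump, with -3.02 ± 0.18, or 8.12-fold lower in H1299 (adjusted p = 5.59e-05). ABCC1 was lower too, by -1.10 ± 0.11, whereas ABCC2 was higher in H1299, by 0.56 ± 0.14. Likewise AKR1C3 and AKR1B10 were lower in H1299, at -2.34 ± 0.12 and -1.47 ± 0.37, and AKR1C2 higher, at 0.76 ± 0.16. On the H2009 control arrays ABCC2 and AKR1C2 lay below the array medians (4.65 to 5.15). AKR1C3 and AKR1B10 did so on the H1299 control arrays (3.27 to 3.78), and cross-reading within the AKR1C genes was not tested. EPHX1 and HMOX1 stood at -1.84 ± 0.16 and -1.62 ± 0.28. The 14 members not called included KEAP1 at 0.07 ± 0.24, PRDX1 at 0.02 ± 0.14 and CBR3 at -0.04 ± 0.11. With the hairpin as a block GSR (-0.59, adjusted p = 0.0198) and SLC48A1 (0.51, adjusted p = 0.0477) were called as well, which gave 19 members.

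The calls of GCLC, GCLM, ME1, EPHX1, AKR1C3, ABCC1, ABCC3 and HMOX1 were kept in the other settings tried and without any single array. NFE2L2, TALDO1, UGDH and ABCC2 lost theirs without any one of the 4 control arrays, with values of -0.36 to -0.52, -0.57 to -0.74, -0.78 to -0.89 and 0.47 to 0.65. TXNRD1 lost its call without the H2009 GFP array (adjusted p = 0.0501), and TKT, NQO1, AKR1B10 and AKR1C2 without some of the control arrays. Over all left-out arrays these ran from -0.50 to -0.73, -0.92 to -1.71, -0.88 (without the H2009 LUC array) to -2.05 and 0.59 to 0.94. NFE2L2 also lost it with median centring (0.0540) and ABCC2 with cyclic loess (0.0819). Of the 6 epithelial markers, 6 stood lower in H1299 as well and 5 were called. Those lower included EPCAM, CDH1, KRT19, KRT7 and KRT8, and their part in these differences was not tested.

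**Figure D5:**
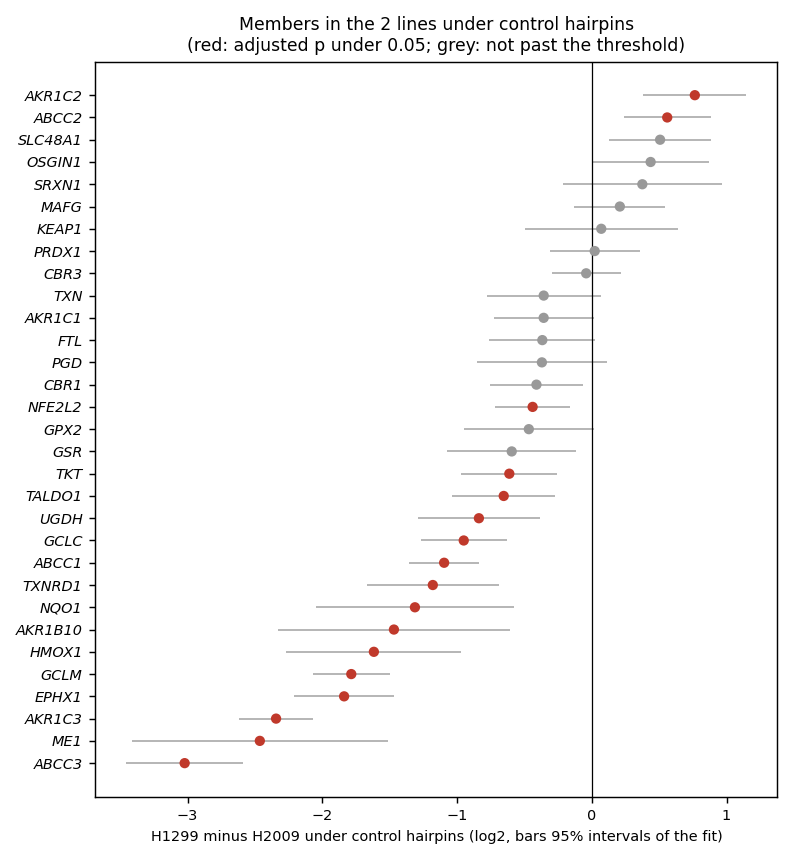
Points are the H1299 minus H2009 log2 difference of each gene under control hairpins with its 95% interval, red where the adjusted p is under 0.05. The 15 lower genes run from NFE2L2 at -0.44 to ABCC3 at -3.02, and AKR1C2 and ABCC2 are the 2 called higher in H1299.

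Beyond the list, 72 further genes of the pathway were looked up and 64 measured. Averaged over the lines none passed, with 37 of 64 above 0, a median of 0.04 and 15 with an unadjusted p under 0.05; with the hairpin as a block SLC40A1 was called. The 5 genes called in a hairpin comparison were SLC40A1, TFRC, BLVRB, GSS and PTGR1. Of all genes 1.23% were called under PTK7-1, 2.15% under PTK7-2 and 3.73% between these hairpins. SLC40A1, ferroportin, the iron exporter, fell under PTK7-1 by 1.32 on the log2 scale (-1.32 ± 0.23, adjusted p = 0.0457). It read 5.11, 5.28, 4.44 and 4.74 in H1299 and 7.65, 7.88, 5.88 and 6.83 in H2009, so both PTK7 arrays were the lower ones in each line. TFRC, the transferrin receptor that takes up iron, rose under PTK7-1 by 0.98 ± 0.17 (adjusted p = 0.0435), with 9.61, 10.06, 11.01 and 10.58 in H1299 and 10.39, 10.17, 11.07 and 10.75 in H2009. BLVRB, biliverdin reductase B, rose under PTK7-2 by 0.78 ± 0.13 (limma adjusted p = 0.0283). The averaged difference of HMOX2, the second heme oxygenase, was 0.55 ± 0.11 (adjusted p = 0.196).

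Hairpin differences were also called in glutathione and detoxification genes. GSS, glutathione synthetase, fell under PTK7-1 by 0.88 on the log2 scale (adjusted p = 0.0389), stood at 0.14 ± 0.14 under PTK7-2, and was lower with PTK7-1 than PTK7-2 by -1.01 ± 0.17 (adjusted p = 0.0222). PTGR1, a reductase of lipid aldehydes and prostaglandins, rose under PTK7-2 by 0.67 ± 0.13 (adjusted p = 0.0493) and was -0.92 ± 0.15 lower with PTK7-1 than PTK7-2 (adjusted p = 0.0217). Of 64 genes, 1 rose and 2 fell under PTK7-1 (1.23% of all genes called), 2 rose under PTK7-2 (2.15%), and 2 were lower with PTK7-1 than with PTK7-2 (3.73%). These shares count both directions, and only on that basis were the counts under PTK7-2 and between the hairpins near them. Among all genes 46 rose and 180 fell under PTK7-1, and 72 rose and 323 fell under PTK7-2. Between the hairpins 329 were lower and 357 higher with PTK7-1. The PTK7-1 calls of GSS, TFRC and SLC40A1 were lost with quantile normalization and cyclic loess (adjusted p up to 0.0614, 0.0611 and 0.0739), and that of PTGR1 under PTK7-2 with cyclic loess (0.0513). With an array left out, the calls of TFRC and SLC40A1 were lost in 8 of 8 cases, with values of 0.81 to 1.14 and -1.81 to -0.84. That of GSS under PTK7-1 was kept in 2 of 8 (-0.99 to -0.76), and those of BLVRB and PTGR1 under PTK7-2 in 1 of 8 each, without the H2009 PTK7-2 array (0.61 to 0.95 and 0.51 to 0.83). The direct differences between the hairpins were kept in 5 of 8 for GSS and 3 of 8 for PTGR1, with values of -1.13 to -0.90 and -1.08 to -0.76.

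The other pathway genes with the smallest averaged p in their group are given as values, since none passed. Among genes that control NRF2, the small MAF gene MAFF stood at 0.36 ± 0.12, the related factor NFE2L1 at 0.36 ± 0.14 and the repressor BACH1 at -0.24 ± 0.13. In glutathione metabolism SLC3A2, a chain of the cystine transporter, stood at 0.39 ± 0.11, the plasma peroxidase gene GPX3 at 0.53 ± 0.20 and MGST1 at -0.24 ± 0.09. Among peroxide and superoxide enzymes PRDX4 of the endoplasmic reticulum stood at 0.57 ± 0.12, SOD3 at 0.39 ± 0.14 and SESN1 at -0.32 ± 0.18. PGLS of the pentose phosphate pathway stood at -0.70 ± 0.18, with both PTK7 arrays below both controls in each line. IDH1 stood at -0.25 ± 0.09 and TRIM16 at 0.29 ± 0.20.

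Between the lines under control hairpins 30 of the 64 were called, 15 in each direction, beside 24.8% of all genes, 12.5% higher and 12.3% lower in H1299. The peroxidase genes GPX1 and GPX3 were lower in H1299 by -5.15 ± 0.27 and -4.28 ± 0.28, MGST2 by -3.32 ± 0.13 and SESN3 by -3.58 ± 0.17. NFE2L3, a factor related to NRF2, was higher in H1299 by 3.42 ± 0.24, the autophagy receptor SQSTM1, which binds KEAP1, by 1.04 ± 0.15, and BACH1 by 0.84 ± 0.19. SESN2 was higher by 2.16 ± 0.28 and SOD3 lower by -1.16 ± 0.19. In heme, iron and efflux, SLC40A1 was lower in H1299 by -2.56 ± 0.30, while the pump ABCC4 and the last heme synthesis enzyme FECH were higher by 1.61 ± 0.12 and 1.29 ± 0.31. TRIM16 and IDH1 were lower by -1.85 ± 0.29 and -1.08 ± 0.13, and NQO2 higher by 1.16 ± 0.15.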

How the data were processed

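The authors deposited 1 log2 value for each probe set and array, computed by RMA under R 2.14.0 according to the submitters' processing notes. RMA subtracts background, normalizes between arrays and summarises probes, and it compresses small differences of dim genes. The chip definition and annotation release used upstream are not given in the sources used here. Of 32321 probe sets 19158 had a single symbol, 1388 several and 11775 none in the array's annotation table, and the probe set with the highest mean over the 8 arrays was kept for each of 18404 genes.

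Group means were fitted to all 8 arrays with limma 3.58.1 in R 4.3.3 (lmFit, contrasts.fit, eBayes), and p-values were adjusted by Benjamini-Hochberg over all genes. A second model with a term for each hairpin and for the line compared the hairpins. Errors after ± are standard errors of the fit. Precision is limited by the number of arrays, of which no 2 were identical. The labels name the same hairpins in both lines, and the deviations of same-hairpin arrays from their group means correlated between lines (r of 0.230 for control and 0.407 for PTK7 hairpins). A fit blocked on the hairpin was therefore run as well; it refers to these 4 hairpins only. The fits were tested on simulated data.

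The 34 members and 72 further genes were chosen with earlier results of these data known, so no result for them is independent support. Every member could be named; of each group of further genes, those past the threshold in a knockdown or hairpin comparison and otherwise up to 3 with the smallest averaged p, and between the lines up to 3 with the largest difference among those called. Gene positions and promoters are from RefSeq (GRCh38.p14). Marker lists covered epithelial, lung, leukocyte, fibroblast and endothelial genes. Figures were drawn with matplotlib 3.10.9. Alternatives were quantile normalization, median centring, cyclic loess, averaging all probe sets of a gene, leaving out the dimmest 40%, a trended prior, an additive fit, the hairpin block and leaving out each array; the counts over members were put through them after seeing the data.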

Additional observations from a re-analysis of the deposited data

How the results depend on the processing

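Averaged over the lines, the 0 calls became 3 with a trended prior, 2 in an additive fit, 149 with the hairpin as a block and 0 to 5 with an array left out. In H1299 the 1 call became 0 with cyclic loess and without the dimmest 40% of genes, 4 with the block and 0 to 8 with an array left out. The difference between the lines went from 0 calls to 1 with a trended prior, 1 with the block and 0 to 3 with an array left out. For PTK7-1 the 226 calls became 150 with cyclic loess, 348 without the dimmest genes, 373 with a trended prior and 0 to 347 with an array left out. With an array left out, the PTK7-2 calls ran from 18 to 545, those of PTK7-1 against PTK7-2 from 0 to 943 and those between the lines from 2196 to 5298. Cyclic loess moved the share of those higher in H1299 from 50.3% to 42.8%. Of 17 members called between the lines, 9 to 19 passed with an array left out. Members with every PTK7 array below every control array in H1299 went from 0 to 1 with quantile normalization. With an array left out they numbered 0 to 5, and those above in H2009 went from 9 to between 9 and 15. Fewer arrays then have to be apart, so such counts can only stay or rise, and they do not measure stability. Those above in H1299 and below in H2009 also stayed or rose. A group left with a single array was assumed to vary like the others. Of the members, 79 values, 18 of them called, were tried without each array. The other settings were tried where they applied to the comparison and kept the gene. With an array left out, the calls were kept in 108 of 144 cases and lost in 36, and a call was gained in 4 of 488. In the other settings they were kept in 117 of 121 and lost in 4, and gained in 10 of 434. None that was called reversed. The causes were not tested. Dim genes and 2 arrays per group limit all of this.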

Other observations

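The listed genes without a probe set of their own had values on shared ones. A probe set annotated to PIR and PIR-FIGF read 7.21 (GFP), 7.31 (LUC), 8.51 (PTK7-1) and 7.05 (PTK7-2) in H1299, and 7.69, 7.98, 7.55 and 7.30 in H2009. The PTK7-1 array of H1299 was the highest of the 8. A probe set annotated to TRIM16L and TRIM16 read 9.11, 9.10, 9.43 and 10.13 in H1299 and 10.41, 10.53, 9.99 and 10.31 in H2009, so both PTK7 arrays were above the controls in H1299 and below them in H2009. Which of the paired genes these values belong to cannot be told apart, and the differences were not tested.

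MAFG had 3 probe sets. In H2009 both PTK7 arrays were above both controls on each of them, and in H1299 the groups overlapped on each. AKR1C1 had a second, dimmer probe set, which read 4.55, 4.59, 4.61 and 4.77 in H1299 and 5.29, 5.40, 5.33 and 5.59 in H2009.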
